A study of Mus musculus with 2 samples.

Results

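The CXC and CX3C chemokines of mouse liver cells were described here: Cxcl1, Cxcl2, Cxcl5, Cxcl9, Cxcl10, Cxcl12, Cxcl13, Cxcl14, Cxcl16 and Cx3cl1. These 10 genes, of 30406 genes listed for both libraries, were matched by Ensembl identifier, and all 10 had UMIs (unique molecular identifiers, each counting 1 captured RNA molecule) in both libraries. The study compared livers of healthy mice with livers of CCl4-injured mice by droplet single-cell RNA sequencing (10x Genomics 3′ v2 chemistry), with 1 library per condition. Both groups were Col1a2CreER:Rosa26tdTomato mice, in which Cre driven by the Col1a2 promoter of collagen-producing cells switches on a red reporter. By the study's methods the mice were on a C57BL/6 background and 8 to 10 weeks old at the start. CCl4, a solvent that injures hepatocytes, was injected there as a 10% solution in corn oil 2 times a week for 12 weeks, and the control animals were uninjured. Livers were digested with pronase and collagenase, cells were purified on a Nycodenz gradient, and the methods add that most CD45+ (immune) cells were removed with magnetic beads. The number of mice behind each library is not given in the sources used here.

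Chemokines are small secreted proteins that steer leukocytes along gradients through G-protein-coupled receptors. Cxcl1, Cxcl2 and Cxcl5 carry the ELR motif and attract neutrophils through CXCR2, while Cxcl9 and Cxcl10 are induced by interferons and attract T and NK cells through CXCR3. Cxcl12 holds CXCR4+ cells in place, Cxcl13 draws CXCR5+ B cells into lymphoid structures, Cxcl14 is made by many epithelial and stromal tissues, and Cxcl16 and Cx3cl1 are made as transmembrane proteins that bind CXCR6 and CX3CR1.

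The ELR genes lie close together on chromosome 5 of GRCm38.p6, with Cxcl5 at chr5:90759298-90761625, Cxcl1 at chr5:90891245-90893121 and Cxcl2 at chr5:90903899-90905938. The same chromosome holds Cxcl9 at chr5:92321331-92328079, Cxcl10 at chr5:92346638-92348889 and Cxcl13 at chr5:95956939-95961068. The other members lie apart, with Cxcl12 at chr6:117168535-117181368, Cxcl14 at chr13:56288643-56296811, Cxcl16 at chr11:70454389-70459984 and Cx3cl1 at chr8:94772180-94782427. A promoter sequence was found in the RefSeq table for 8 of the 10 members, without Cxcl5 and Cxcl16. Stretches upstream of Cxcl1, Cxcl2 and Cxcl10 are shown because these are the members with a match to the NF-kappaB motif, and they were chosen after the matches were seen. Members without such a match (Cxcl12, Cxcl13, Cxcl14 and Cx3cl1) were also counted as higher in CCl4 mesothelial cells, so the choice ties no motif to a level. They are written 5′ to 3′ on the gene's strand, and capitals mark matches to the NF-kappaB motif, to the interferon-stimulated response element (GAAA, any pair of bases, GAAA) and to the AP-1 motif (TGAGTCA or TGACTCA).
Cxcl1, chr5:90891125-90891244, plus strand: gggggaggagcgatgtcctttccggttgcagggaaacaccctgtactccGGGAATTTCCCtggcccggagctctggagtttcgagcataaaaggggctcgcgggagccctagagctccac
Cxcl2, chr5:90903779-90903898, plus strand: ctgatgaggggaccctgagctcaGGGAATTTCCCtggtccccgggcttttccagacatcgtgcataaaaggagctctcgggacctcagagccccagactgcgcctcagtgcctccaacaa
Cxcl10, chr5:92348950-92349109, minus strand: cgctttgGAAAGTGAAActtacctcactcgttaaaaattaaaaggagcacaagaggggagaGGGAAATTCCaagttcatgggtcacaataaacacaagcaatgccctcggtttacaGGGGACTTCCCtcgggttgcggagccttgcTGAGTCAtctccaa

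Counted from the annotated start, Cxcl1 had NF-kappaB matches starting at -71 and, on the other strand, -70, and Cxcl2 had the same overlapping pair at -97 and -96. Cxcl10 had NF-kappaB matches starting at -159, -104 and -103, the last pair overlapping, with an interferon-stimulated response element at -213 and an AP-1 match at -74. Over both strands of the 250 bases before 32851 annotated starts, 7.25% held an NF-kappaB match, 2.98% an interferon-stimulated response element and 4.46% an AP-1 match. Among the 8 members with a sequence, 3 held an NF-kappaB match, and 2, Cxcl10 and Cxcl14, held an interferon-stimulated response element. A letter match describes these windows only.

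After filtering, 5605 of 6297 healthy barcodes and 7318 of 8460 CCl4 barcodes were kept, with medians of 6790 and 11863.5 UMIs per cell. Clusters were named from marker genes and are "like" the named types: endothelial (3569 healthy and 651 CCl4 cells), cholangiocyte (1433 and 33), hepatocyte (321 and 329), mesothelial, the lining of the liver surface (236 and 1582), mesenchymal (10 and 2961), macrophage/monocyte (14 and 179), T/NK (5 and 111) and neutrophil (1 and 86). Although the series text speaks of hepatocytes, the share of hepatocyte-like cells was 5.73% (healthy) and 4.50% (CCl4). Of the named types, endothelial, mesothelial and most CCl4 hepatocyte cells fell in other clusters than those of the healthy library, so that library and cell state cannot be told apart there. The CCl4 endothelial cluster also carried globin RNA, with Hbb-bt, Hba-a1 and Hbb-bs as its leading genes. Levels are given as CPM (UMIs scaled to a total of 1000000 in the same cells), with exact 95% intervals that cover counting error only. The gradient and the CD45 depletion set how many cells of each type could contribute, so shares of UMIs describe these suspensions and not the liver.

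In droplet libraries free RNA gives every cell some UMIs, and the T/NK cells of the CCl4 library served as the yardstick for it. Their level was 111 CPM for Cxcl12, 27.7 for Cxcl10, 23.4 for Cxcl1, 12.8 for Cxcl2, 10.6 for Cxcl13, 8.51 for Cxcl16 and 6.38 for Cxcl5. For Cxcl9, Cxcl14 and Cx3cl1 it was 2.13 CPM (0.0539 to 11.9), which is 1 UMI in the 111 cells. CCl4 levels at or below these values are not read as expression, and levels inside the intervals cannot be told apart from free RNA. Other leukocytes of that library gave other levels. Neutrophils had 84.6 CPM of Cxcl12, 21.9 of Cxcl10 and 15.7 of Cxcl1, but 9.40 of Cxcl16 and 3.13 of Cxcl14. An unnamed cluster with B/plasma and dendritic markers had 69.1 CPM of Cxcl12, 4.93 of Cxcl10 and of Cxcl1 and 0 of Cxcl2, but 14.8 of Cxcl13. Readings against the T/NK level rest on this choice, and no other yardstick was used. The yardstick was not matched for depth. T/NK cells had a median of 4020 UMIs, against 18137 in CCl4 mesothelial cells and 893 in CCl4 hepatocytes. The same number of free UMIs makes a lower CPM in deep cells and a higher one in shallow cells. How far this shifts the yardstick was not tested.

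Over all kept cells, the neutrophil attractants and the homeostatic chemokines were the members that stood far higher in the CCl4 library. A gene was counted as higher or lower when its CPM differed at least 2-fold with an interval that left out 1, given at least 10 UMIs over both libraries. By this measure 7 of 10 members were higher and 0 were lower, where 16.9% of all 17528 genes tested were higher and 24.4% lower. The median log2 ratio was 3.28 over the members and -0.34 over all genes. With 1 library per condition no test of the conditions is possible, and every ratio compares these libraries.

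Cxcl1 went from 1702 UMIs (36.9 CPM) in the healthy library to 26083 (299 CPM) in the CCl4 library, a ratio of 8.09 (7.70 to 8.50). Cxcl2 went from 241 UMIs (5.23 CPM) to 5340 (61.1 CPM), a ratio of 11.7 (10.3 to 13.4). Cxcl5 went from 102 UMIs (2.21 CPM) to 9361 (107 CPM), a ratio of 48.4 (39.9 to 59.5). All 3 ELR ligands were thus higher, whereas the CXCR3 ligands stayed within 2-fold. Cxcl9 had 33.9 CPM in the healthy and 22.9 CPM in the CCl4 library (ratio 0.676, 0.632 to 0.722), and Cxcl10 had 132 and 140 CPM (ratio 1.05, 1.02 to 1.09). Of all members, Cxcl13 and Cxcl12, both homeostatic, had the largest ratios. Cxcl13 went from 128 UMIs (2.78 CPM) to 28458 (326 CPM), a ratio of 117 (98.7 to 141). Cxcl12 went from 1032 UMIs (22.4 CPM) to 109299 (1251 CPM), a ratio of 55.9 (52.6 to 59.5), and was the most abundant member of the CCl4 library. Cxcl14 went from 34 UMIs (0.738 CPM) to 2216 (25.4 CPM), a ratio of 34.4 (24.5 to 49.8). The transmembrane ligands differed from each other. Cxcl16, the most abundant member of the healthy library, had 176 CPM there and 137 CPM in the CCl4 library (ratio 0.780, 0.759 to 0.803), while Cx3cl1 went from 4.40 to 15.7 CPM (ratio 3.56, 3.07 to 4.15). These ratios mix the level within a cell type with the makeup of the suspension, which changed from mostly endothelial and cholangiocyte cells to mostly mesenchymal and mesothelial cells.

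**Figure D1:**
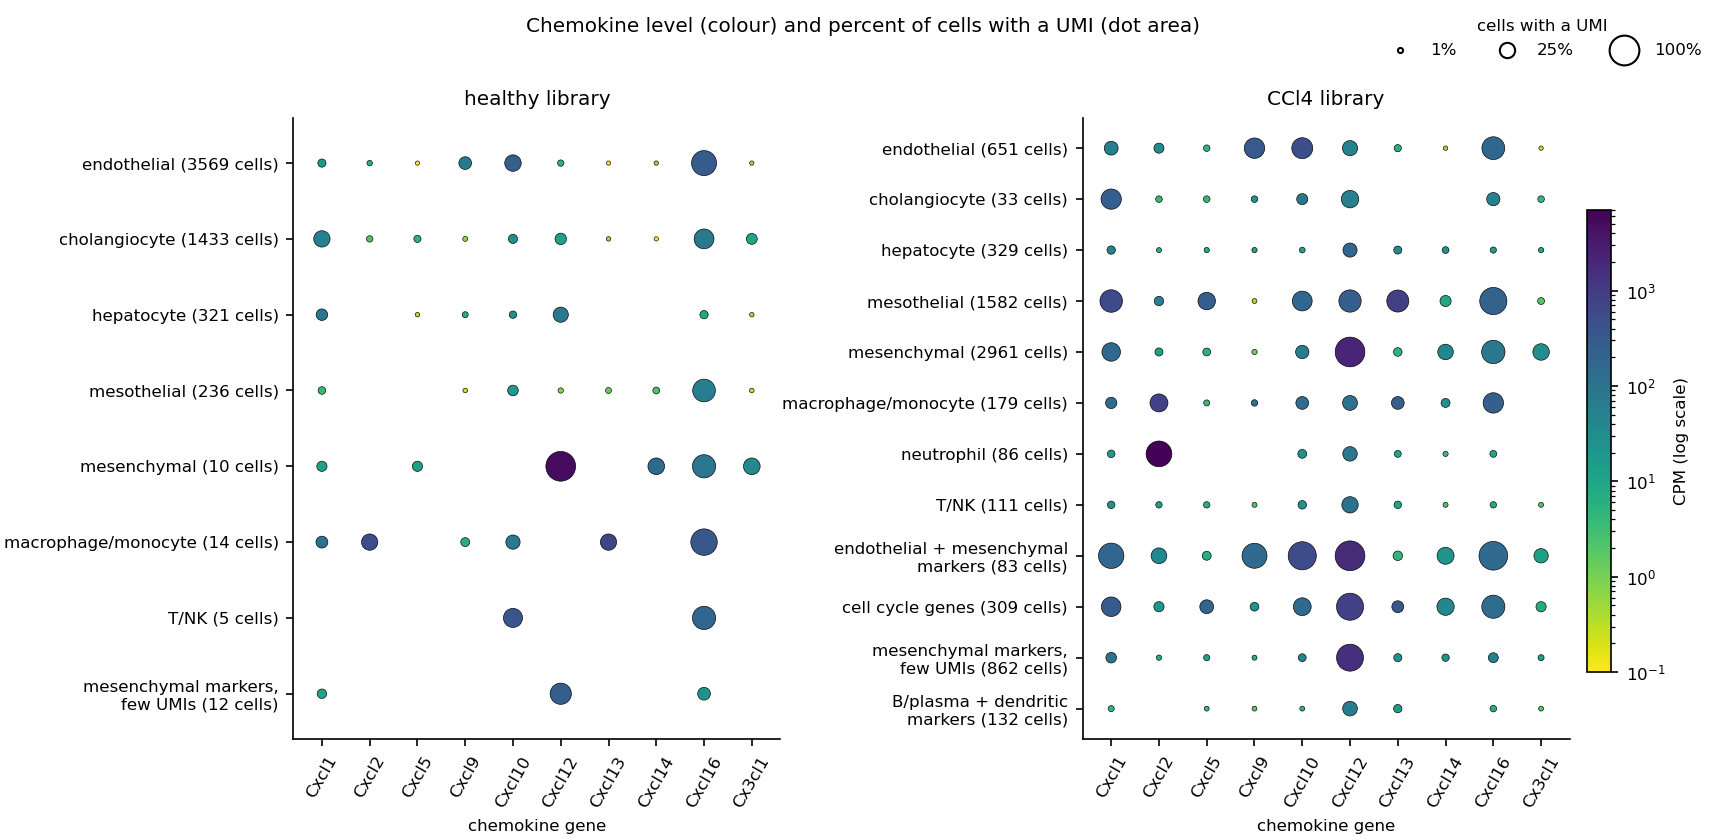
Level (colour, CPM on a log scale) and percent of cells with at least 1 UMI (dot area) of the 10 chemokine genes (horizontal axis) in the populations with at least 5 cells (vertical axis) of the healthy and the CCl4 library. No dot means 0 UMIs. Cxcl12 in mesenchymal cells and Cxcl2 in CCl4 neutrophils are the darkest dots, at 5159 and 6537 CPM, and the mesothelial dots of Cxcl1, Cxcl5, Cxcl12 and Cxcl13 are far larger in the CCl4 library.

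Among the neutrophil attractants, Cxcl1 came mostly from bile duct cells in the healthy library and from mesothelial cells in the CCl4 library. Healthy cholangiocytes held 61.4% of its UMIs at 57.1 CPM (53.7 to 60.7), and endothelial cells held 22.6% at 18.6 CPM. The higher healthy level, 84.7 CPM in hepatocytes, came almost wholly from 48 deeply sequenced cells of 1 cluster, which held 226 of the 234 hepatocyte UMIs. In the CCl4 library mesothelial cells held 64.1% of the Cxcl1 UMIs at 572 CPM (563 to 581), and mesenchymal cells held 26.3% at 165 CPM (161 to 169). A UMI of Cxcl1 was seen in 56.3% of CCl4 mesothelial cells (34.1% after thinning every cell to 2000 UMIs) against 4.50% of T/NK cells (1.65% after thinning), with medians of 18137 and 4020 UMIs per cell.

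Cxcl2 was above all a transcript of neutrophils and macrophages, cells of which the suspension held few. In the healthy library 14 macrophage/monocyte cells held 78 of its 241 UMIs, at 509 CPM (402 to 635), while 3569 endothelial cells held 118 UMIs at 5.70 CPM. In the CCl4 library 86 neutrophils held 2086 UMIs, 39.1% of the total, at 6537 CPM (6259 to 6823), and 74.4% of them had a UMI (67.8% after thinning). Macrophage/monocyte cells followed at 810 CPM (755 to 866), then mesothelial cells at 54.2 CPM, which held 29.7% of the UMIs because of their number. The neutrophil level thus exceeded every other population of the CCl4 library beyond counting error.

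Cxcl5 came mostly from 1 lining epithelium in each library. Healthy cholangiocytes held 98 of its 102 UMIs (96.1%) at 5.36 CPM (4.35 to 6.53). CCl4 mesothelial cells held 86.0% of 9361 UMIs at 275 CPM (269 to 281), and the cycling cells, a cluster led by division genes and holding mesothelial and mesenchymal markers, had 190 CPM. All other populations of that library lay between 0 and 11.97 CPM, against 6.38 CPM in T/NK cells.

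**Figure D2:**
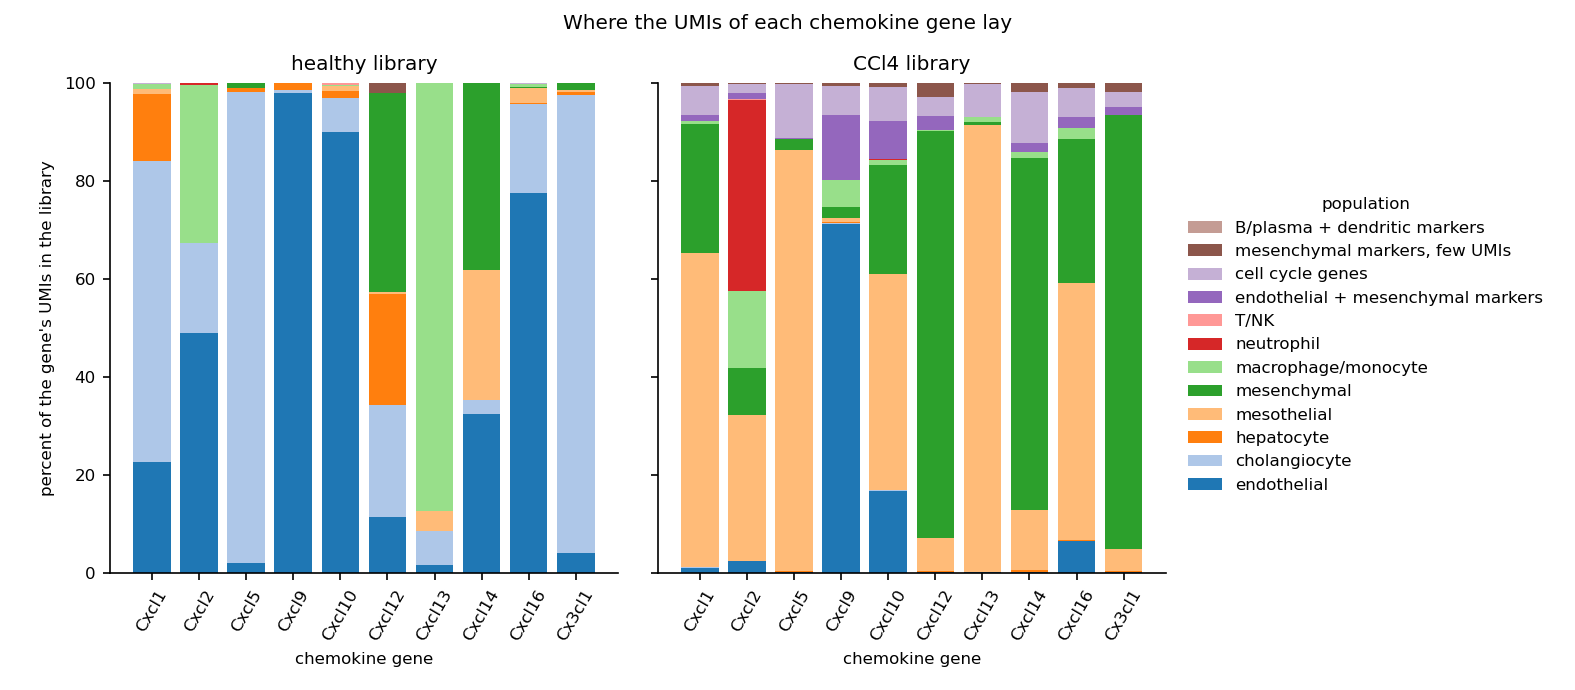
Percent of the UMIs of each chemokine gene (vertical axis) that lay in each population (colours) of the healthy and the CCl4 library. Endothelial cells (dark blue) and cholangiocytes (light blue) fill most bars of the healthy library, and mesothelial cells (light orange) and mesenchymal cells (green) most bars of the CCl4 library, except for Cxcl9 (71.2% endothelial) and Cxcl2 (39.1% neutrophil).

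Both CXCR3 ligands had most of their UMIs in endothelial cells in the healthy library, as did Cxcl9 in the CCl4 library. Healthy endothelial cells held 97.8% of the Cxcl9 UMIs at 73.8 CPM (70.1 to 77.6), and CCl4 endothelial cells held 71.2% at 330 CPM (313 to 347). A UMI of Cxcl9 was seen in 16.5% of healthy and 45.9% of CCl4 endothelial cells (9.03% and 31.5% after thinning), against 0.901% of CCl4 T/NK cells. Next in the CCl4 library came 83 cells that carried both endothelial and mesenchymal markers, at 152 CPM. Their median depth was 21241 UMIs, against 6537 in endothelial and 13883 in mesenchymal cells, and whether they are remaining doublets was not tested. They were followed by macrophage/monocyte cells at 105 CPM. In the macrophage/monocyte cells only 2.79% had a Cxcl9 UMI, so a few cells held the 108 UMIs.

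Cxcl10 UMIs were spread over more cell types in the CCl4 library. Healthy endothelial cells held 89.9% of its 6105 UMIs at 265 CPM (258 to 272), and the other types with at least 20 cells lay between 17.7 and 29.7 CPM. Of the smaller healthy populations, 5 T/NK cells had 20 UMIs in 2 cells, 374 CPM (228 to 578). The 14 macrophage/monocyte cells had 78.2 CPM (40.4 to 137). In the CCl4 library the endothelial share was 16.7% at 473 CPM (453 to 494), mesothelial cells held 44.0% at 183 CPM (179 to 188) and mesenchymal cells 22.2% at 65.3 CPM (62.9 to 67.8). The 83 deep cells with endothelial and mesenchymal markers had 545 CPM (511 to 581). Hepatocytes of the CCl4 library, at 12.2 CPM, were not above the T/NK level.

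Within the healthy endothelium both genes were higher in the sub-cluster named for portal than in those named for central sinusoidal markers. The sinusoid is the capillary bed that runs from portal to central vein. The sub-cluster with portal sinusoidal markers such as Dll4 and Efnb2 (765 cells) had 138 CPM of Cxcl9. The sub-clusters with central markers such as Rspo3 and Wnt9b (217 and 76 cells) had 13.5 and 1.66 CPM. Cxcl10 had 402 CPM in the portal sub-cluster against 167 and 98.2 CPM in the central ones, and large-vessel cells were between them at 319 CPM. Cxcl16 had a narrower range, with 325 CPM in the portal and 283 and 176 CPM in the central sub-clusters. An unnamed sub-cluster of 665 cells had 353 CPM of Cxcl10 with 76.2 CPM of Cxcl9.

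**Figure D3:**
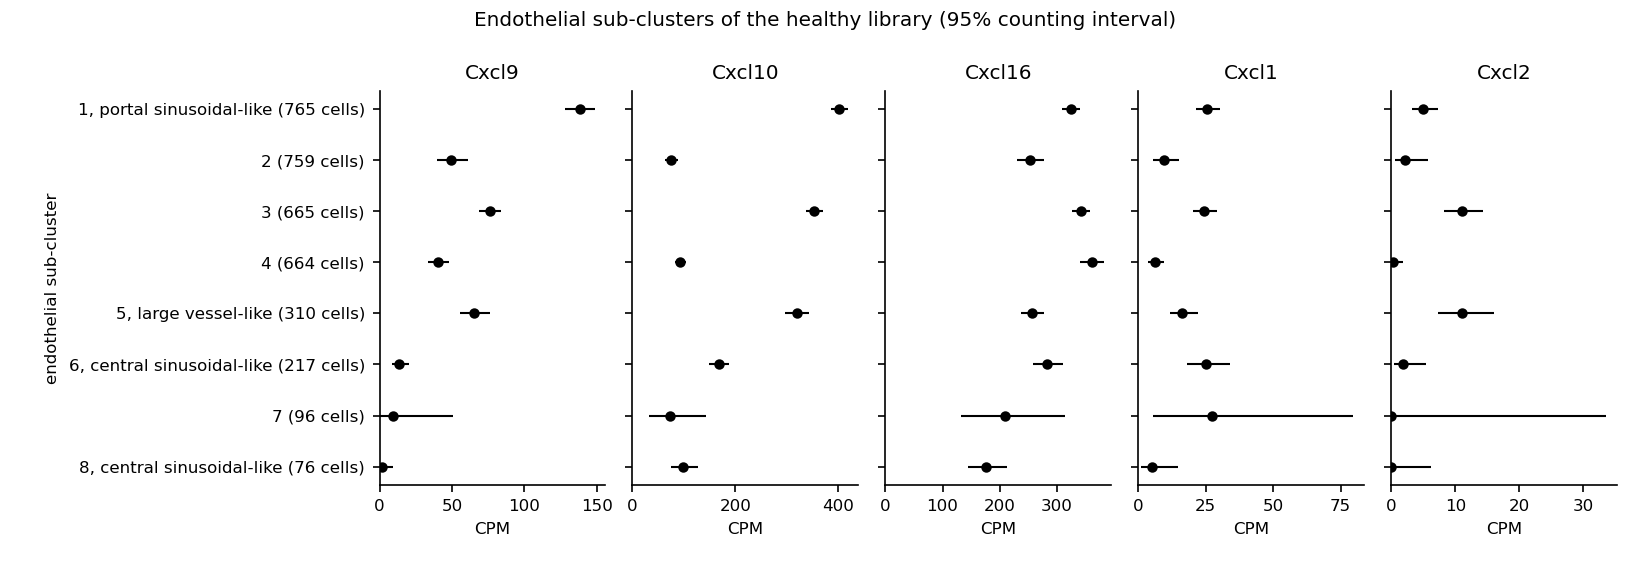
CPM (horizontal axes) of Cxcl9, Cxcl10, Cxcl16, Cxcl1 and Cxcl2 in the endothelial sub-clusters of the healthy library with at least 20 cells (vertical axis). Points are CPM of the summed UMIs and lines are 95% counting intervals. Cxcl9 falls from 138 CPM in portal to 1.66 CPM in the smaller central sinusoidal-like sub-cluster, which also held large-vessel markers.

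Cxcl10 also marked a subset of healthy bile duct cells. Of the 430 cholangiocyte UMIs of Cxcl10, 321 lay in a sub-cluster of 286 cells with the interferon-response gene Ifit3 as its first leading gene, at 47.1 CPM (42.0 to 52.5). Its median depth was 22391 UMIs, against 11173 over all healthy cholangiocytes. A sub-cluster of 69 cells had 38.5 CPM (16.6 to 75.8), which overlaps it, and the others had 7.48 to 13.0 CPM. Cxcl1 was highest in those 69 cells, at 183 CPM (129 to 251), followed by a sub-cluster of 233 cells at 111 CPM (99.8 to 124). The 69 cells were shallow, with a median of 2693 UMIs, and held 5 hepatocyte markers. Ahsg, Serpina10, Gc and Fgg were among the leading genes of the 233 cells. The part of hepatocyte RNA in these Cxcl1 levels was not tested. Cxcl16 was highest in another, at 134 CPM in 381 cells.

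The homeostatic chemokine Cxcl12 was the transcript of the mesenchymal cells, the stellate cells and fibroblasts that make matrix. In the healthy library only 10 such cells were captured, and they held 420 of 1032 UMIs, at 5159 CPM (4677 to 5677). After CCl4, 2961 mesenchymal cells held 83.0% of 109299 UMIs at 2184 CPM (2170 to 2199), and 99.7% of them had a UMI (93.5% after thinning) against 28.8% of T/NK cells (15.2% after thinning). With 10 healthy cells the mesenchymal level was not compared between libraries, so the higher whole-library level went with more captured mesenchymal cells and a level per cell that cannot be read from 10 cells. Healthy hepatocytes had 85.0 CPM of Cxcl12, of which 198 of 235 UMIs lay in the 48 deep cells. Endothelial cells and cholangiocytes of the CCl4 library, at 48.7 and 56.7 CPM, lay below the T/NK level.

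Most Cxcl13 UMIs lay in different cell types in the 2 libraries. In the healthy library 14 macrophage/monocyte cells held 112 of its 128 UMIs, at 730 CPM (601 to 879). CCl4 mesothelial cells held 91.2% of 28458 UMIs at 887 CPM (876 to 898), and macrophage/monocyte cells held 262 UMIs at 255 CPM (225 to 287). A UMI was seen in 53.9% of CCl4 mesothelial cells (24.9% after thinning) and in 2.12% of healthy ones (0.321%), at nearly equal medians of 18137 and 18282 UMIs per cell.

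Cxcl14 was a low mesenchymal transcript. The 10 healthy mesenchymal cells held 13 of 34 UMIs, endothelial cells 11 and mesothelial cells 9. In the CCl4 library mesenchymal cells held 71.9% of 2216 UMIs at 38.4 CPM (36.5 to 40.3), the cycling cells had 41.9 CPM (36.7 to 47.8), and these neighbours in the order did not differ beyond their intervals. Mesothelial cells had 9.16 CPM (8.10 to 10.3), and endothelial cells, with 2 UMIs, were not above the T/NK level.

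Of the transmembrane ligands, Cxcl16 had UMIs in every population with at least 5 cells in both libraries. In the healthy library it was seen in 70.1% of endothelial cells (45.8% after thinning), which held 77.5% of its 8099 UMIs at 303 CPM (296 to 311). The 14 healthy macrophage/monocyte cells had 346 CPM (259 to 452), an interval that includes the endothelial level. Cholangiocytes followed at 80.3 CPM, mesothelial cells at 63.4 CPM and hepatocytes at 9.05 CPM. In the CCl4 library macrophage/monocyte cells had 253 CPM (223 to 285), mesothelial cells 215 CPM (210 to 221), endothelial cells 179 CPM (166 to 192) and mesenchymal cells 84.5 CPM (81.7 to 87.3). Mesothelial cells held 52.6% of its CCl4 UMIs.

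Cx3cl1 had most of its UMIs in bile duct cells of the healthy and in mesenchymal cells of the CCl4 library, cell types of which the other library held few. Healthy cholangiocytes held 190 of its 203 UMIs (93.6%) at 10.4 CPM (8.96 to 11.97). CCl4 mesenchymal cells held 1215 of 1371 UMIs (88.6%) at 29.3 CPM (27.6 to 30.9), and 29.4% of them had a UMI (5.46% after thinning) against 0.901% of T/NK cells. The 10 healthy mesenchymal cells had 3 UMIs, 36.9 CPM (7.60 to 108), an interval that includes the CCl4 level, and the 33 CCl4 cholangiocytes had 1 UMI. Endothelial cells, which express Cx3cl1 in some tissues, had 8 healthy UMIs and 1 CCl4 UMI.

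Within cell types, the comparison of libraries was made where at least 20 cells were present in both. Of the 10 members, 9 were higher and 0 lower in CCl4 mesothelial cells, where 11.7% of 14154 genes were higher and 14.1% lower. In endothelial cells 6 of 9 were higher and 0 lower, against 6.01% and 15.9% of 13400 genes. In cholangiocytes 4 of 8 were higher and 0 lower, against 2.37% and 4.36% of 13424 genes. In hepatocytes 3 of 7 were higher and 1 lower, against 12.7% and 13.8% of 9474 genes. Median log2 ratios of the members were 4.75 in mesothelial, 2.16 in endothelial, 1.90 in cholangiocyte and 0.85 in hepatocyte cells, where those of all genes were -0.15, -0.28, 0.14 and 0.13. edgeR's TMM scaling moved the all-gene medians by 0.17, 0.24, 0.13 and -0.21, and by 0.36 over all cells.

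**Figure D4:**
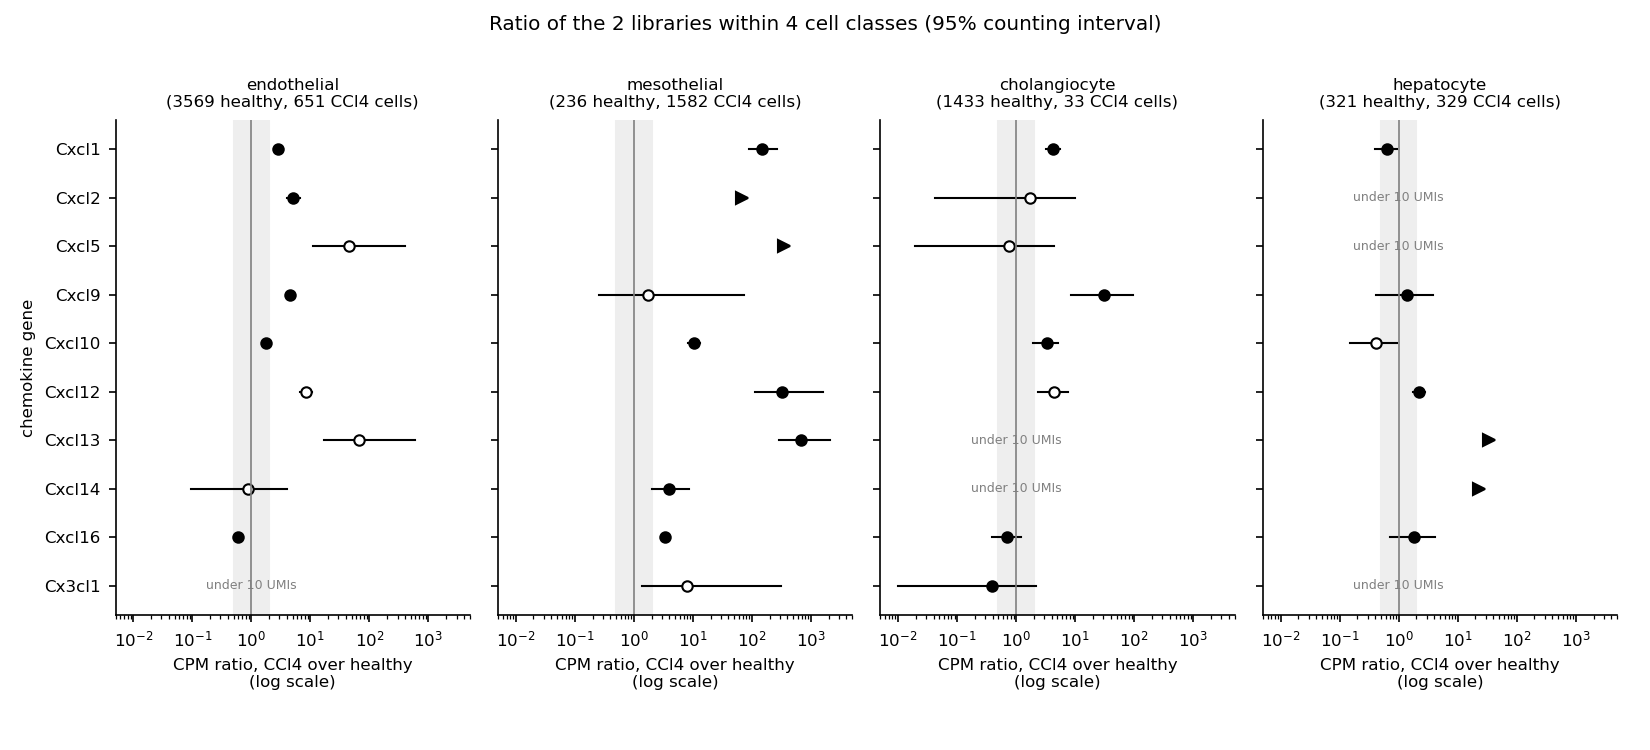
Ratio of CPM, CCl4 over healthy (horizontal axes, log scale), of the 10 chemokine genes (vertical axis) in the 4 cell types with at least 20 cells in both libraries, with 95% counting intervals and a grey band from 0.5 to 2. Triangles are ratios against a floor of 3 UMIs where the healthy cells had 0, and open symbols mark CCl4 levels at or below that of T/NK cells. Mesothelial ratios reach 682 for Cxcl13, while endothelial Cxcl16 lies at 0.590.

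Mesothelial cells differed most between the libraries, and their depth was alike. Cxcl13 had 5 UMIs (1.30 CPM) in the 236 healthy and 25945 (887 CPM) in the 1582 CCl4 cells, a ratio of 682 (292 to 2102). Cxcl1 had 15 UMIs (3.90 CPM) and 16728 (572 CPM), a ratio of 147 (88.9 to 262). Cxcl5 had 0 and 8048 UMIs, so that it was at least 353-fold higher against a floor of 3 UMIs over the healthy cells. Cxcl2 had 0 and 1585 UMIs, a ratio of 69.5 against the same floor, with a lower limit of 56.4 from the counts. Cxcl12 had 3 UMIs in the healthy cells and 257 CPM in the CCl4 cells, a ratio of 329 (113 to 1597). Each of these 5 genes lay above the T/NK level in the CCl4 cells. Cxcl10 went from 17.7 to 183 CPM (ratio 10.4, 8.17 to 13.4), Cxcl16 from 63.4 to 215 CPM (ratio 3.39, 2.99 to 3.87) and Cxcl14 from 2.34 to 9.16 CPM (ratio 3.92, 2.03 to 8.66). Cx3cl1, with 1 and 60 UMIs, had a ratio of 7.89 (1.36 to 317). The CCl4 levels of Cxcl14 and of Cx3cl1, at 2.05 CPM (1.57 to 2.64), lay within the T/NK intervals, which rest on 1 UMI, and the part of free RNA in them was not tested. Cxcl9 stayed near 0, with 1 and 13 UMIs.

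The mesothelial level was uneven among clusters. In the CCl4 library 1 cluster of 630 cells held 83.0% of all Cxcl13 UMIs of the library at 1845 CPM, 82.5% of Cxcl5 at 604 CPM and 46.5% of Cxcl1 at 948 CPM. The acute-phase gene Saa3 and the protease inhibitor Serpinb2 were among the leading genes of this cluster, and no healthy cell lay in it. Chemokine genes were left out of the clustering, but Cxcl13 and Cxcl5 were themselves among its leading genes. The larger mesothelial cluster, of 881 cells, had 144 CPM of Cxcl13, 19.9 CPM of Cxcl5 and 281 CPM of Cxcl1. Without the cluster of 630 cells, 9 members remained higher in CCl4 mesothelial cells, with ratios of 109 (46.8 to 337) for Cxcl13 and 71.7 (43.4 to 128) for Cxcl1. In those remaining cells Cxcl2, at 10.8 CPM, and Cxcl12, at 57.9 CPM, were not above the level of the shallower T/NK cells. When the mesothelial cells were clustered again, a sub-cluster of 192 cells carried Cxcl12 at 1514 CPM together with Cxcl13 at 2771 and Cxcl1 at 1117 CPM. These 192 cells also held 5 mesenchymal markers, and Hbb-bs, Hba-a1, Hbb-bt, Col15a1, Lum and Dpt were among their leading genes. Whether mesenchymal or free RNA contributed to their Cxcl12 was not tested. A sub-cluster of 386 cells had Cxcl5 at 597 CPM with Cxcl12 at 120 CPM.

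The UMIs were also concentrated in few cells. The 30 CCl4 mesothelial cells with most Cxcl13 held 50% of its 25945 UMIs, and 1 cell had 869. For Cxcl1, 107 of the 1582 cells held 50%, and for Cxcl5, 55 cells. Cxcl12 was spread more evenly, with 50% of its UMIs in 786 of 2961 mesenchymal cells, as was Cxcl16 in healthy endothelial cells, with 50% in 696 of 3569. Healthy endothelial Cxcl10 was less evenly spread, with 50% of its UMIs in 126 cells. CCl4 mesothelial cells had a median of 4 of the 10 members per cell, 30.7% had 5 or more, and CCl4 endothelial cells had a median of 2 at a lower depth of 6537 UMIs.

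**Figure D5:**
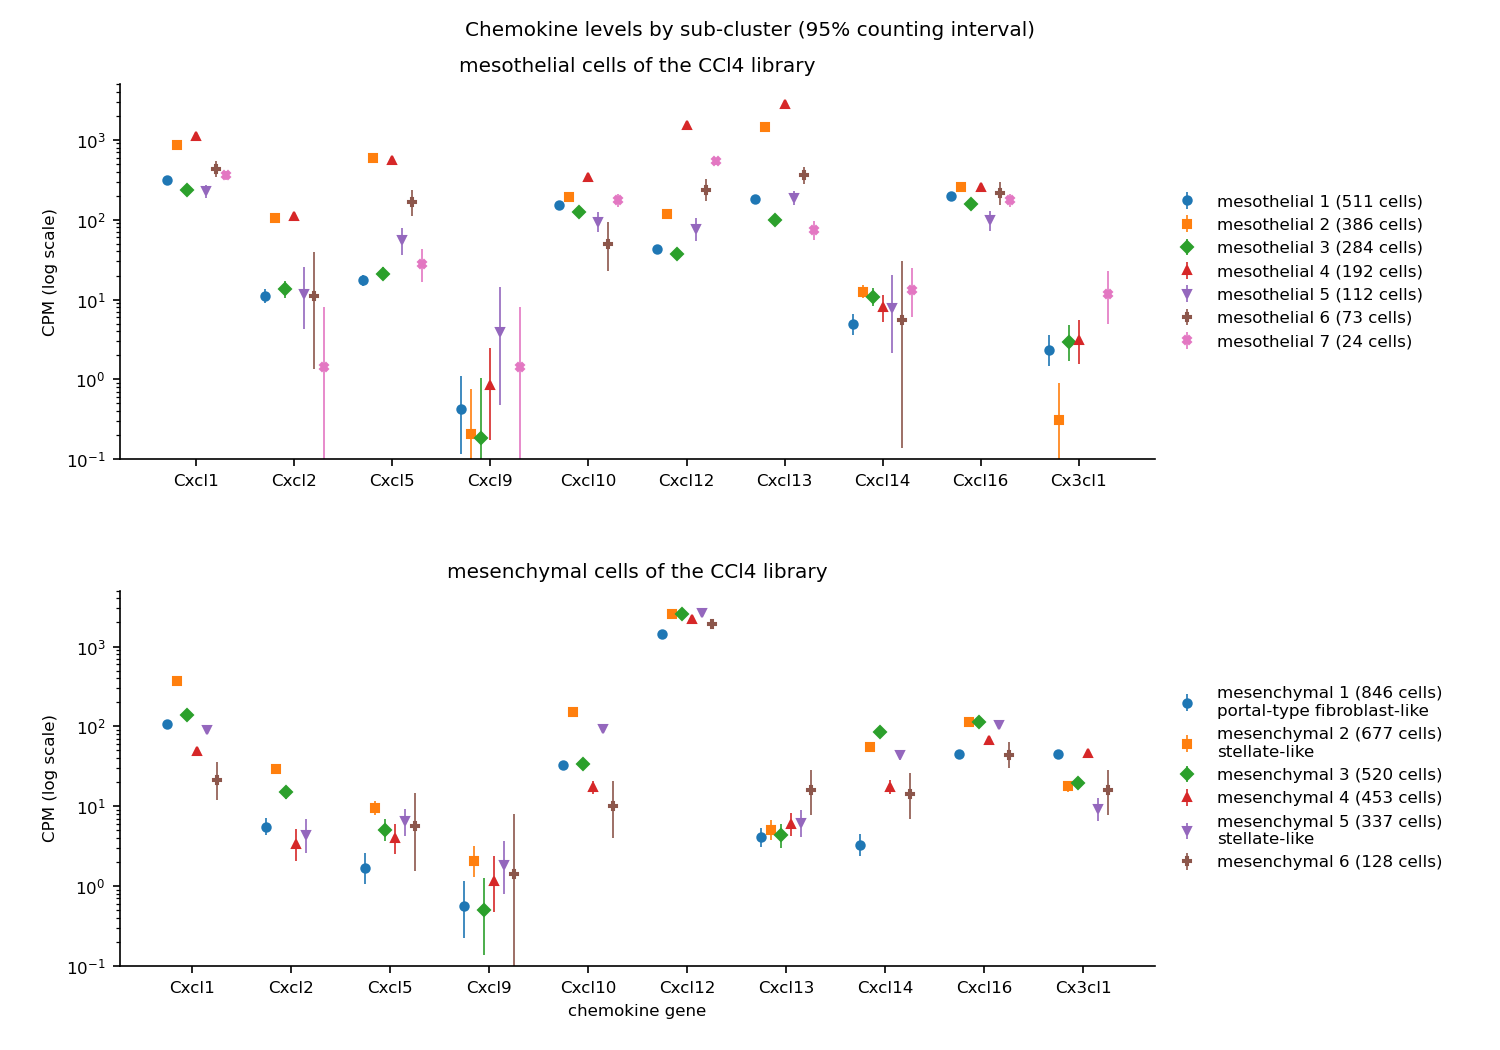
CPM (vertical axes, log scale) of the 10 chemokine genes (horizontal axis) in sub-clusters of the mesothelial (top) and mesenchymal cells (bottom) of the CCl4 library, with 95% counting intervals. A missing point means 0 UMIs. Mesothelial sub-clusters 2 and 4 lead for Cxcl1, Cxcl2, Cxcl5 and Cxcl13, mesothelial sub-cluster 4 leads for Cxcl12, and mesenchymal sub-clusters 1 and 4 lead for Cx3cl1. Mesothelial sub-cluster 4 also held mesenchymal markers and globin RNA.

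Among CCl4 mesenchymal cells, Cxcl10, Cxcl12, Cxcl14 and Cxcl16 were higher and Cx3cl1 was lower in both stellate-like sub-clusters (677 and 337 cells) than in the portal-type fibroblast-like sub-cluster (846 cells). Cxcl10 had 152 and 93.3 CPM in the stellate-like against 32.4 CPM in the fibroblast-like cells, Cxcl12 had 2589 and 2648 against 1433 CPM, and Cxcl16 had 114 and 104 against 45.4 CPM. Cx3cl1 had 17.7 and 9.21 CPM in the stellate-like and 44.7 CPM in the fibroblast-like cells, with 46.0 CPM in an unnamed sub-cluster of 453 cells. Cxcl1 did not follow this division, since the larger stellate-like sub-cluster had 369 CPM (357 to 381) and the smaller one 91.0 CPM (82.2 to 100.4), below the 107 CPM (101.02 to 113) of the fibroblast-like cells. Cxcl14 was highest, at 85.1 CPM, in an unnamed sub-cluster of 520 cells that also had the most Acta2 (1584 CPM), the actin of contractile myofibroblasts, and was at 55.6 and 44.4 CPM in the stellate-like and 3.31 CPM in the fibroblast-like sub-clusters. Cxcl12 varied least, between 1433 and 2648 CPM over the 6 sub-clusters.

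In endothelial cells Cxcl9 was higher in the CCl4 library, while Cxcl10 and Cxcl16 stayed within 2-fold by CPM (Cxcl10 not so with TMM scaling). Cxcl9 went from 73.8 to 330 CPM, a ratio of 4.47 (4.16 to 4.81). This ratio was 1.97 with a mitochondrial limit of 10%, under which 111 CCl4 endothelial cells were named. Cxcl10 went from 265 to 473 CPM, a ratio of 1.78 (1.70 to 1.88), which is 2.11 with TMM scaling. Cxcl16 went from 303 to 179 CPM, a ratio of 0.590 (0.547 to 0.636), where the mesothelial ratio was above 1. Cxcl2 went from 5.70 to 29.2 CPM (ratio 5.13, 3.96 to 6.65), and 2.89 after taking the T/NK level off the CCl4 counts only. Cxcl1 went from 18.6 to 53.4 CPM (ratio 2.87, 2.43 to 3.39), and 1.61 after taking it off. The CCl4 levels of Cxcl5, Cxcl12 and Cxcl13 in endothelial cells, 4.41, 48.7 and 6.50 CPM, were not above the T/NK level, so 3 of the 6 higher members are not read as expression there.

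In bile duct cells the CCl4 library offered only 33 cells. Cxcl1 had 60 UMIs in them, 243 CPM against 57.1 CPM in healthy cells (ratio 4.26, 3.22 to 5.52). Cxcl10 had 19 UMIs, 76.9 against 23.5 CPM (ratio 3.27, 1.95 to 5.18). Cxcl9 rested on 5 UMIs in 1 cell, and Cxcl12 was not above the T/NK level. For Cx3cl1 and Cxcl5, with 1 CCl4 UMI each, no difference was detectable at this depth, since the intervals of the ratios ran from 0.00982 to 2.20 and from 0.0190 to 4.31.

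In hepatocytes the ratios turned on which cells were counted. Cxcl1 had 84.7 CPM in healthy and 53.0 CPM in CCl4 hepatocytes (ratio 0.626, 0.401 to 0.941), but without the 48 deep healthy cells the ratio was 5.97 (2.62 to 15.3). Cxcl10 had 82 and 6 UMIs (ratio 0.412, 0.147 to 0.937), and 0.848 without those cells. Cxcl12 had a ratio of 2.21 (1.71 to 2.82), and 0.911 after taking off the T/NK level. Cxcl13 and Cxcl14 had 0 healthy UMIs and 18 and 12 CCl4 UMIs, in cells with a median of 893 UMIs. CCl4 hepatocyte levels of Cxcl1, Cxcl13 and Cxcl14, at 53.0, 36.7 and 24.5 CPM, were higher than in T/NK cells, with intervals that overlapped for Cxcl1 and Cxcl13, and the part of free RNA in them was not tested beyond the subtraction. T/NK cells were deeper, with a median of 4020 UMIs, and the yardstick was not matched for this.

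Genes of inflammatory signalling moved with the members in mesothelial cells. Of all genes tested there, 11.7% were higher and 14.1% lower, and their median log2 ratio was -0.15. In a list of NF-kappaB and early inflammatory response genes, 7 of 11 tested were higher and 0 lower (median log2 ratio 1.57). Among them Ccl2, a monocyte attractant, had 3 healthy UMIs and 573 CPM in CCl4 cells (ratio 735, 251 to 3563), and Tnfaip3, a feedback inhibitor of NF-kappaB, went from 2.86 to 84.8 CPM (ratio 29.6, 16.5 to 59.5). Nfkbia, the inhibitor of NF-kappaB, went from 217 to 562 CPM (ratio 2.58, 2.41 to 2.77). Zfp36 and Ier3 had ratios of 2.97 each, while Nfkbiz (1.29) and Icam1 (0.881) stayed within 2-fold. Immediate early and stress genes, which also rise while tissue is digested, were higher for 4 and lower for 0 of 10 in mesothelial cells, and their part in the chemokine levels was not tested. In endothelial cells 4 of 10 NF-kappaB list genes were higher and 0 lower, with Tnfaip3 at 21.4 and 82.1 CPM (ratio 3.85, 3.33 to 4.43). Zfp36 (0.869) and Nfkbia (0.961), which had more UMIs, stayed within 2-fold there. Of 10 stress genes, 2 were higher and 1 lower. Of all genes tested in endothelial cells 6.01% were higher and 15.9% lower.

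Interferon-response genes were mostly lower in the CCl4 endothelial cells, in which Cxcl9 was higher. Of 12 tested, 0 were higher and 7 lower, with a median log2 ratio of -1.26 against -0.28 over all genes. Among all genes tested there, 6.01% were higher and 15.9% lower. Isg15, a ubiquitin-like antiviral protein, went from 108 to 10.7 CPM (ratio 0.0986, 0.0720 to 0.132) and Ifit1, an antiviral RNA-binding protein, from 55.5 to 21.6 CPM (ratio 0.389, 0.311 to 0.481). The other lower genes were Ifit3 (ratio 0.354), Gbp2 (0.425), Igtp (0.389) and the immunoproteasome subunits Psmb8 (0.410) and Psmb9 (0.333). Those within 2-fold included Iigp1 (1.91), Irf1 (1.68), Irf7 (1.07) and Gbp4 (0.582). In mesothelial cells 1 of 12 was higher and 4 lower, against 11.7% and 14.1% of all genes tested. Ifng itself lay in T/NK cells, with 203 of 217 CCl4 UMIs.

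The receptors lay mostly in the leukocytes left after CD45 depletion. In the whole library 6 of 6 tested receptor genes were higher, against 16.9% of all genes tested. Cxcr2, the receptor of the ELR ligands, had 219 of 229 CCl4 UMIs in neutrophils, at 686 CPM. Cxcr3 had 44 of 87 in T/NK cells at 93.6 CPM, and Cxcr6, which binds Cxcl16, had 125 of 131 there at 266 CPM and all 13 healthy UMIs in the 5 T/NK cells. Cx3cr1 had 233 of 304 UMIs in macrophage/monocyte cells at 226 CPM, Cxcr4 was highest in neutrophils at 226 CPM, and 17 of 21 Cxcr5 UMIs lay in the cluster with B/plasma and dendritic markers. CCl4 mesothelial cells, which held most Cxcl1 and Cxcl5 UMIs, had 4 of 229 Cxcr2 UMIs, whereas neutrophils held the largest share of both Cxcl2 and Cxcr2. Receptor totals followed the leukocytes captured, which the CD45 depletion limits.

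Members also differed in which genes shared their pattern over the 15 populations with at least 50 cells, by Pearson correlation of log2(CPM + 10). These populations share libraries and depth, and the values are descriptions. For Cxcl1 the most similar genes were Fn1 (0.907), which encodes fibronectin, then Ccl7 (0.834) and AI427809 (0.825). For Cxcl2 they were Alox15 (0.956), Ccl6 (0.953) and Pgd (0.953). For Cxcl5 they were Chl1 (0.972), Clca3a2 (0.971) and Car4 (0.968), and for Cxcl13 they included Ifi205 (0.964) and Serpinb2 (0.940). For Cxcl9 the list was Mrc1 (0.947), the mannose receptor of sinusoidal endothelium and macrophages, Cd36 (0.937) and Il1a (0.929), and for Cxcl10 it was Gatm (0.953), Maf (0.924) and Scamp5 (0.919). Cxcl12 was most like Igfbp3 (0.950), S1pr3 (0.942) and Mylk (0.942), and Cxcl14 like Lpl (0.900), Gpx3 (0.884) and Ptges3l (0.883). Cxcl16 was most like Lgmn (0.939), Arf2 (0.918) and Vat1 (0.908), and genes similar to Cx3cl1 included Epha7 (0.914) and Fgfr2 (0.907). Between members, the most alike were Cxcl5 and Cxcl13 (0.838), Cxcl10 and Cxcl16 (0.825), Cxcl9 and Cxcl10 (0.803), and Cxcl12 and Cxcl14 (0.798).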

How the data were processed

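Single-cell UMI counts of 2 libraries, healthy and CCl4, were analysed. Per the file headers, the count matrices deposited by the authors came from Cell Ranger 3.1.0 (healthy, 31053 genes) and 6.0.1 (CCl4, 32285 genes), and the identifiers are of mouse genes. The submitters' processing notes name builds GRCh38 and mm10, so the step from reads to counts is partly unclear. The deposited barcodes held 51122846 and 97611831 UMIs, each with at least 500, and 10 barcodes occurred in both libraries. Members and gene lists were chosen with earlier results of these data known.

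Genes on both lists were joined by Ensembl identifier (30406). Cells with at least 200 genes and at most 30% mitochondrial UMIs were kept, and 277 and 487 cells with the highest simulated-doublet scores were removed (0.8% per 1000 cells). Both libraries were clustered together with scanpy 1.11.5 (2000 variable genes without chemokine ligands and receptors, the listed genes, mitochondrial, ribosomal and sex-linked genes, 10 principal components, 20 neighbours, Leiden resolution 1), without batch integration. A cluster was named where at least 3 markers of a list were enriched at least 2-fold and found in at least 10% of cells, fewer than 75% of the markers of any second list were, and no other list had more markers among its 10 leading genes. Shallow clusters with no marker among those genes stayed unnamed. Naming thresholds were set after the clusters were seen. Counts were summed per population and library, with exact Poisson intervals for CPM, Clopper-Pearson intervals for shares and exact conditional binomial intervals for ratios. Cells were also thinned to 2000 UMIs, leaving out shallower cells (798 healthy, 1141 CCl4). With 1 library per group no p-value was computed. Every member was described. List genes named as examples were not always those of most UMIs. Companion genes came from lists (other CXC ligands, receptors, atypical receptors, proteases, NF-kappaB, immediate early and interferon genes), with 3 similar genes per member. Some of these genes are not reported here. Ratio calls were tried on simulated counts with counting error only, which cannot show how they behave with the spread between cells or animals. Alternatives covered filters, clustering, scaling (edgeR 4.0.16 TMM factors), folds and, chosen after seeing the data, subtraction of the T/NK level and clusters or shared barcodes left out.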

Additional observations from a re-analysis of the deposited data

Results flagged for a closer look

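For 3 members the ratio between the libraries lay above 1 in some cell types and below 1 in another, each with an interval that left out 1. Whether these ratios differ between cell types was not tested, since each rests on 1 library per condition. Cxcl16 had a ratio of CPM, CCl4 over healthy, of 3.39 in mesothelial and 0.590 in endothelial cells. For Cxcl1 the ratio was 147 in mesothelial, 4.26 in cholangiocyte and 2.87 in endothelial cells but 0.626 in hepatocytes. For Cxcl10 it was 10.4 in mesothelial, 3.27 in cholangiocyte and 1.78 in endothelial cells but 0.412 in hepatocytes. The hepatocyte values of Cxcl1 and Cxcl10 went to 5.97 and 0.848 without 1 cluster of 48 deeply sequenced healthy cells. The Cxcl16 ratios were 2.87 without the mesothelial cluster of 630 cells and 0.580 without the shallow healthy endothelial cluster.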

How the results depend on the processing

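Of 180 summary values recomputed under other settings 163 were unchanged by the criteria used, as were 604 of 656 single ratios. A summary value was taken as unchanged within 1.5-fold of the reported one. A single ratio was taken as unchanged when its call (higher, lower or neither) stayed the same. Smaller shifts are therefore not counted. No paired analysis was possible because each condition has 1 library, and for the same reason no replicate could be left out. In endothelial cells the number of lower members, 0 as reported, was 1 with a mitochondrial limit of 10%, with a fold of 1.5 and after subtraction of the T/NK level, the last chosen after seeing the data, which also left 2 higher members. The subtraction lowered the CCl4 counts only, so it could reduce ratios but not raise them. The endothelial member lower after it was Cxcl12. In hepatocytes the number of higher members, 3 as reported, was 1 with a mitochondrial limit of 10%, 0 with at least 1000 UMIs and 6 with no minimum count. The number of lower members there, 1 as reported, was 0 with a mitochondrial limit of 10%, with no such limit, with no doublets removed, with every cell weighing the same, with a fold of 4 and without cluster 2 (the 48 deep cells, left out after seeing the data), and 2 with a fold of 1.5 and after the subtraction. Hepatocyte Cxcl1 turned from 0.626 to 3.50 (mitochondrial limit of 10%), 2.92 (cells weighing the same) and 5.97 (without cluster 2), and hepatocyte Cxcl10 from 0.412 to 1.06 (mitochondrial limit of 10%), 1.36 (no doublets removed) and 1.44 (cells weighing the same). Mesothelial Cxcl9 rested on 1 healthy UMI. With at least 3 UMIs counted in each library, as in the other ratios recomputed under alternatives, it was 0.570 and became 7.78 with no doublets removed. Subtraction turned Cxcl12 to 0.911 in hepatocytes. Cxcl12 in CCl4 cholangiocytes and endothelial cells and Cx3cl1 in CCl4 mesothelial cells lay below the T/NK level, so subtraction left nothing. Their values after it, 0.946, 0.122 and 0.132, are set by the floor of 3 UMIs and are not measured reversals. With each library clustered on its own, 5 of 10 members had the same leading population by CPM in the healthy library, and without thinning 6 of 10 had the same by share of cells in the CCl4 library. The cause of these shifts was not tested. Depth limits the CCl4 cholangiocytes (33 cells) and hepatocytes (median 893 UMIs) most.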

Other observations

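All 4 atypical and scavenging receptors tested were at least 2-fold lower over all cells of the CCl4 library, where 24.4% of all genes tested were. Gpr182, a scavenging receptor of sinusoidal endothelium, went from 715 to 66.4 CPM over all cells (ratio 0.0929), while endothelial cells went from 63.7% to 8.90% of the cells. Within endothelial cells it went from 1575 to 1089 CPM, a ratio of 0.692 (0.671 to 0.713). Within mesothelial cells Ackr3, which takes up Cxcl12, went from 183 to 21.6 CPM (ratio 0.118, 0.106 to 0.132). Ackr4, a decoy receptor for CC chemokines, was lower in mesothelial cells (ratio 0.0432, 0.0254 to 0.0708) and in endothelial cells (0.214, 0.142 to 0.311). Ackr1 had no UMI in healthy and 41 in CCl4 mesothelial cells, at 1.40 CPM. This is a ratio of 1.80 against a floor of 3 UMIs, and the part of free RNA in it was not tested. Counted as higher over 0 UMIs, it made 1 of the 4 higher, and 2 were lower in that cell type. There 11.7% of all genes tested were higher and 14.1% lower. Of the 3 proteases that act on these ligands, 1 was lower over all cells and none was higher. The shares among all genes tested were 24.4% lower and 16.9% higher. Dpp4, which truncates several CXC chemokines, went from 548 to 46.7 CPM in mesothelial cells (ratio 0.0853) and from 521 to 239 CPM in endothelial cells (ratio 0.458). Adam10 and Adam17, which shed Cxcl16 and Cx3cl1, stayed within 2-fold in both cell types.

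Of the 6 other CXC ligands listed, 5 were in the files, and of the 4 tested over all cells 3 were higher and 1 was lower. Among all genes tested over all cells 16.9% were higher and 24.4% lower. Pf4, known from platelets, had its highest CCl4 level in macrophages and monocytes at 160 CPM, but 3214 of its 4094 CCl4 UMIs lay in mesenchymal cells at 77.4 CPM. In the healthy library 356 of its 482 UMIs lay in endothelial cells. Cxcl3, a neutrophil-attracting ligand, had 15 of 18 healthy UMIs in cholangiocytes and 64 of 95 CCl4 UMIs in mesothelial cells. Ppbp, another platelet gene, had 0 healthy and 42 CCl4 UMIs, 30 of them in the unnamed cells of low UMI counts. All 10 healthy UMIs of Cxcl17 lay in cholangiocytes, and the CCl4 library held 1. Of 10 immediate early and stress genes, 2 were higher and 1 lower over all cells, and in hepatocytes 1 was higher and 4 were lower. In hepatocytes 12.7% of all genes tested were higher and 13.8% lower.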
